A study of Rattus norvegicus with 50 samples.

Results

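RNA sequencing compared gene expression in the rat medial prefrontal cortex between postnatal day 21 and postnatal day 14. The comparison took the 10 libraries of day 21 against the 10 libraries of day 14, 20 of the 50 libraries in the study, with genotype as a blocking factor. At each of these ages 5 libraries came from wild-type rats and 5 from SERT knock-out rats, which lack the serotonin transporter. The study sampled the same tissue from both genotypes also at days 8, 35 and 70, with 5 libraries per genotype and age, and all animals were of the Wistar strain. No group received a treatment that the labels name. Whether each library is a separate rat is not stated in the labels, and the p-values therefore cover the spread between libraries, which may be technical.

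The prefrontal cortex is among the last cortical regions to mature. Between eye opening and weaning in the rat, cortical neurons extend dendrites and form synapses in large numbers, and oligodendrocytes begin to wrap axons in myelin. The serotonin transporter returns released serotonin to the cell, and for a limited time in early life it is also made by neurons that do not release serotonin themselves. In bulk tissue, a change in the number of cells of a type and a change in RNA per cell cannot be told apart.

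The values were FPKM (fragment counts adjusted for transcript length and for the reads of the library) for 29516 Ensembl gene identifiers. The files do not pair these identifiers with gene names, so genes are given by identifier, their functions are not described, and the tissue and the targeted gene were not checked against marker genes here. Relative read depth in the 20 libraries ran from 0.397 to 1.42 times that of the median library of the study. The summed FPKM of a library was between 431410 and 2029710, of which 48.8% to 81.2% belonged to its 50 most abundant genes. Between 17890 and 20162 genes per library had a value above 0. Libraries were rescaled by median ratios to a reference made from all 50, with factors of 0.929 to 1.20 here, and the 14779 genes whose mean reached 0.5 FPKM were tested.

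Of the 20 libraries, 4 stood apart from the rest of their groups. In the knock-out library of day 21 numbered 17-1, 251 of the tested genes lay more than 10 times above the median of the other 4 libraries. Their median was 323 FPKM in this library against 23.7 FPKM in the others. The wild-type library of day 14 numbered 20-2 showed the opposite picture, with 146 genes more than 10 times below the others, at a median of 1.61 against 79.3 FPKM. The wild-type library 21-3 of day 14 had 51 genes below in the same way and the wild-type library 16-2 of day 21 had 48. Counting both directions, the other 16 libraries had 8 to 28 such genes each, with a median of 15.5. Of the 251 genes in library 17-1, limma called 12 as rising and 0 as falling. Of the 146 in library 20-2 it called 0 in either direction, with 1 at an unadjusted p under 0.05. In library 21-3, 1 of the 51 was called as falling, and in library 16-2, 2 of the 48 as rising. Over all tested genes the called share was 35.2%. Genes picked for 1 library far from its group have a wide spread, which makes a call less likely. These counts therefore do not measure how much the 4 libraries affected the results. Library 16-2 was the shallowest of the study at a relative depth of 0.397, and the part of depth in its low genes was not tested. Outside these ages, library 30-5 of knock-out day 8 and library 7-3 of knock-out day 35 had 84 and 64 such genes, and both entered the comparisons with the neighbouring intervals.

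**Figure D1:**
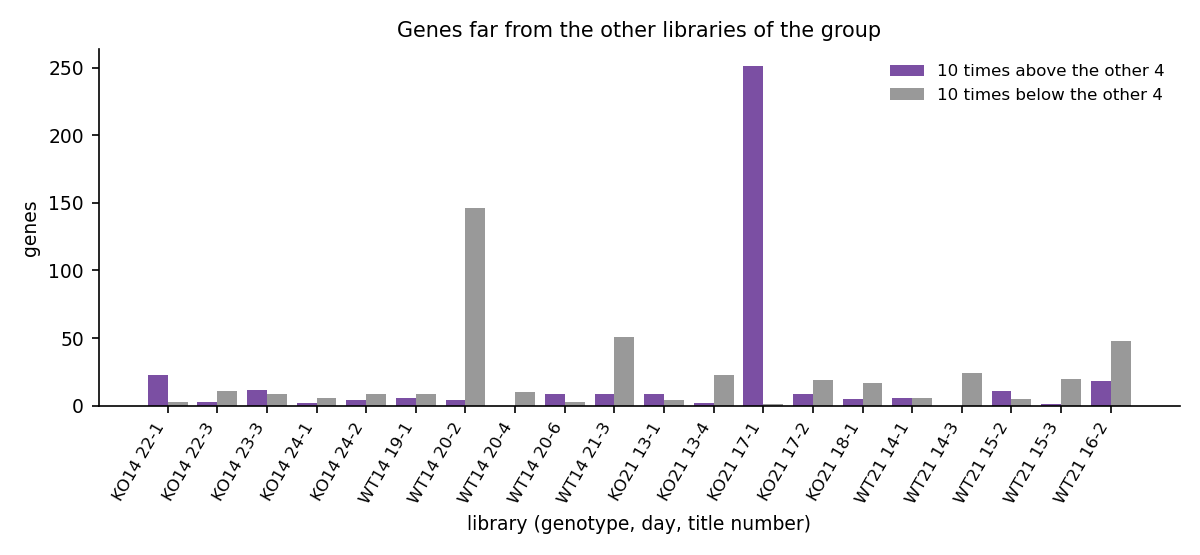
Number of tested genes (vertical axis) in each of the 20 libraries of days 14 and 21 (horizontal axis, KO for knock-out and WT for wild-type) that lay more than 10 times above or below the median of the other 4 libraries of the group. The bar of library 17-1 of knock-out day 21 reaches 251 genes above, and that of library 20-2 of wild-type day 14 reaches 146 genes below.

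Over this week 2588 genes rose and 2620 fell at a limma adjusted p under 0.05 (Benjamini-Hochberg), 5208 of 14779 genes tested or 35.2%. The rising genes were 17.5% and the falling genes 17.7% of those tested. Most changes were small: the median called change was a rise of 0.35 or a fall of -0.32 on the log2(FPKM + 0.5) scale, and 84.1% of the called genes changed by less than 1.5-fold. The median standard error over all tested genes was 0.083. A rise of more than 2-fold was seen in 104 called genes and a fall of more than 2-fold in 75, together 1.21% of the genes tested. The upper tail was the longer of the pair, with 15 called genes above a 4-fold rise and 5 above 8-fold, against 2 genes with a fall of more than 4-fold and 0 with more than 8-fold. A fold change on this scale understates the change of genes at low levels. The 5 libraries of each group carry 3 first title numbers (the number before the hyphen), which the main test did not take into account. The estimated correlation between libraries of the same first number was 0.235. With libraries averaged by that number limma called 3616 genes, and with the number as a random effect 4461.

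The split between rise and fall depended on the scaling. On the values as deposited, without rescaling, 1836 genes rose and 3431 fell, and the median of all genes moved by -0.06 log2 units. With quantile normalization 2317 rose and 2704 fell. All 1836 risers on the deposited values were among the 2588, and all 2620 fallers fell there too. Without the 4 libraries that stood apart, a setting chosen after seeing the data, 2732 genes rose and 2776 fell, among them 2353 of the original risers and 2335 of the original fallers, and 0 changed direction.

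A stricter description needs no model. In 627 genes (4.24% of those tested) every library of day 21 lay above every library of day 14 in each genotype, and in 553 genes (3.74%) every library of day 21 lay below. All of these were also called by the test. The other called genes had overlapping libraries in at least 1 genotype.

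Rise and fall were distributed differently over abundance. Among the 1676 genes with a mean under 1 FPKM over the 20 libraries, 15.2% rose and 11.6% fell. In the 4962 genes between 3 and 10 FPKM, 18.9% rose and 16.7% fell. Fallers outnumbered risers higher up, with 16.0% rising and 26.2% falling among the 1167 genes between 30 and 100 FPKM. The most abundant 465 genes, over 100 FPKM, rose in 11.4% and fell in 18.9% of cases, and their median standard error of 0.148 was the widest of the 6 levels. Of the 51 genes above 1000 FPKM, limma called 0 in either direction, and 0 of them had an unadjusted p under 0.05. No tested gene was at 0 in all 10 libraries of one age and above 0 in all 10 of the other. The nearest to such a switch were 3 genes that rose without overlap from a mean under 1 FPKM at day 14 to over 5 FPKM at day 21, and 0 genes made the reverse move.

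**Figure D2:**
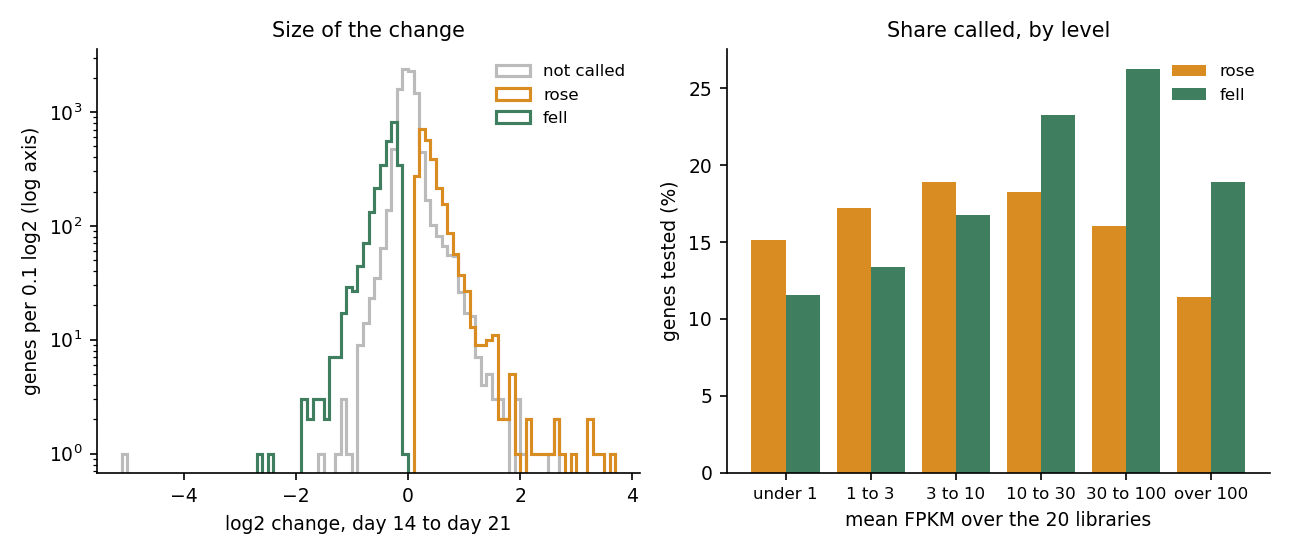
Left, number of tested genes per 0.1 log2 units (log axis) by their fitted log2 change from day 14 to day 21, for genes that rose, fell or were not called. Right, percentage of genes that rose or fell (bars from 0) by mean FPKM over the 20 libraries, with risers at 15.2% and fallers at 11.6% under 1 FPKM, and at 16.0% and 26.2% between 30 and 100 FPKM.

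Where the mean was 1 FPKM or more and there was no overlap between the ages in either genotype, the largest rise was that of ENSRNOG00000018700. In wild-type libraries it stood at 0.200, 0.213, 0.213, 0.253 and 0.346 FPKM at day 14 and at 1.77, 13.1, 18.4, 20.2 and 28.9 FPKM at day 21. In knock-out libraries it stood at 0.089, 0.210, 1.88, 1.92 and 2.20 FPKM at day 14 and at 3.95, 6.63, 12.8, 22.9 and 29.4 FPKM at day 21. The ages did not overlap within a genotype, but the lowest wild-type library of day 21 lay below 3 knock-out libraries of day 14. The log2 change was 3.60 ± 0.47 (SE, limma adjusted p = 7.98e-06), and the level went on at 22.5 ± 7.65 (knock-out) and 23.0 ± 11.8 FPKM (wild-type) at day 35 (SD, n = 5 each).

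The second was ENSRNOG00000015445, at 0.0332, 0.140, 0.175, 0.188 and 0.216 FPKM in wild-type libraries of day 14 and at 1.43, 7.03, 9.08, 12.4 and 17.1 FPKM at day 21. Its knock-out libraries stood at 0.145, 0.252, 0.439, 0.521 and 0.688 FPKM at day 14 and at 2.55, 5.90, 7.28, 13.4 and 16.2 FPKM at day 21. All 10 libraries of day 21 were above all 10 of day 14. The log2 change was 3.40 ± 0.34 (SE, limma adjusted p = 3.62e-07). Both genes were near 0 at day 8, with group means of 0.0812 to 0.255 FPKM.

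The order of libraries within day 21 was the same at both ends in these genes. Library 16-2 was the lowest and 15-3 the highest of the wild-type libraries, and library 18-1 was the lowest and 17-2 the highest of the knock-out libraries. The relative depths of these 4 libraries were 0.397, 1.35, 0.810 and 0.521, so the shallowest was lowest in wild-type rats while the highest knock-out library was also the shallowest of its group.

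The largest fall was that of ENSRNOG00000018992. Its level was 53.9, 76.4, 77.8, 82.3 and 96.8 FPKM in wild-type libraries of day 14 and 7.41, 12.6, 12.6, 12.7 and 12.8 FPKM at day 21. Knock-out libraries held 45.8, 58.7, 72.4, 92.1 and 93.3 FPKM at day 14 and 9.01, 10.2, 11.5, 12.5 and 13.1 FPKM at day 21. The highest library of day 21 was thus far under the lowest of day 14. The log2 change was -2.64 ± 0.14 (SE, limma adjusted p = 8.84e-11). The fall had started before, from 210 ± 56.5 (knock-out) and 199 ± 25.1 FPKM (wild-type) at day 8 (SD, n = 5 each), and by day 35 the level was 8.40 ± 2.71 and 7.10 ± 0.97 FPKM.

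The next was ENSRNOG00000005797, at 10.7, 12.7, 14.0, 14.4 and 14.8 FPKM in wild-type libraries of day 14 and at 1.32, 1.78, 1.84, 2.28 and 2.46 FPKM at day 21. In knock-out libraries it was at 8.48, 10.2, 16.6, 17.6 and 19.8 FPKM at day 14 and at 1.40, 1.51, 2.07, 2.09 and 3.87 FPKM at day 21. The ages were again fully separate. The log2 change was -2.50 ± 0.16 (SE, limma adjusted p = 1.16e-09).

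**Figure D3:**
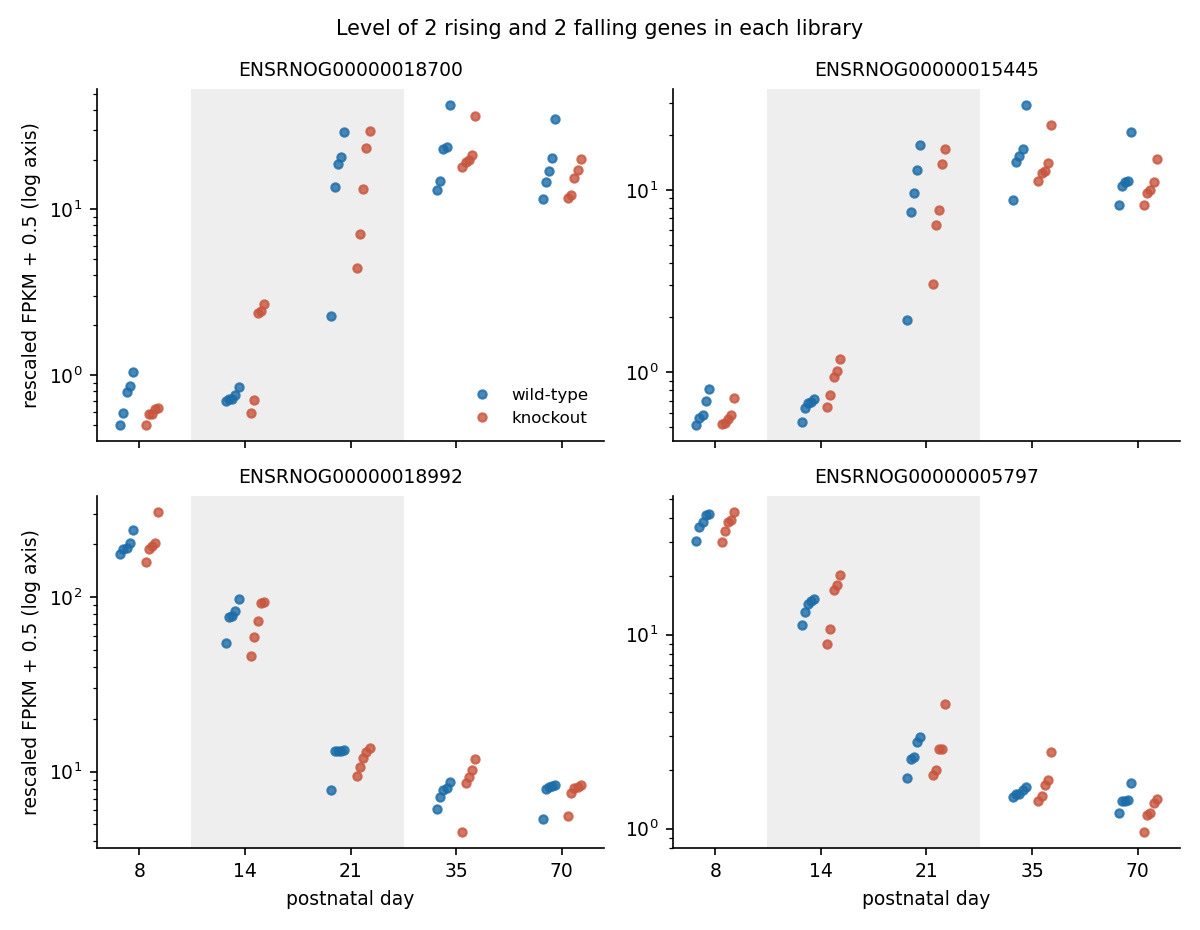
Rescaled FPKM + 0.5 (log axis) of the 2 genes that rose most and the 2 that fell most, in each library at postnatal days 8, 14, 21, 35 and 70, with 5 wild-type and 5 knock-out libraries per age and days 14 and 21 shaded. The risers spread from 1.77 to 29.4 FPKM (ENSRNOG00000018700) at day 21, while the fallers at that age lie within 7.41 to 13.1 FPKM (ENSRNOG00000018992) and 1.32 to 3.87 FPKM (ENSRNOG00000005797).

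The 12 strongest risers and the 12 strongest fallers under the same conditions differed in how even their levels were across the libraries of day 21. This is a description since the same values chose them. The 12 risers had log2 changes of 1.56 to 3.60 and the 12 fallers of -2.64 to -1.51. In the risers the highest wild-type library of day 21 was a median of 4.01 times the lowest, on the FPKM + 0.5 scale, and in 6 of the 12 the ratio was over 4. The corresponding median in the fallers was 1.40, and 0 of the 12 exceeded 2. In knock-out libraries of day 21 the medians were 2.95 for risers and 1.47 for fallers. At day 14 the medians were 1.44 for risers and 1.76 for fallers in wild-type libraries, and 2.44 and 2.02 in knock-out libraries. The added 0.5 lowers these ratios in genes at low levels.

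Single libraries recurred at the ends of the risers. How often each library lay at the end of its group over all tested genes was not counted, so these counts describe the chosen genes only. Library 18-1 was the lowest knock-out library of day 21 in 9 of the 12 risers and the highest in 2, and library 17-2 was the highest in 8 and the lowest in 0. Among wild-type libraries of day 21, 16-2 was the lowest in 8 of the 12 risers and the highest in the other 4, and 15-3 was the highest in 8 and the lowest in 3. At day 14 the knock-out libraries 24-1 and 24-2 were the highest in 6 and 5 of the 12 risers, and 24-2 was the lowest in 10 of the 12 fallers. The 12 risers also had mixed earlier courses, with the mean higher at day 14 than at day 8 in 6 and lower in 6, whereas in 11 of the 12 fallers it was already lower at day 14. From day 21 to 35 the mean went further up in 8 of the 12 risers and further down in 11 of the 12 fallers.

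A called rise did not always rest on all libraries. ENSRNOG00000043948, singled out after its values were seen as the largest called rise with overlapping ages, was at 0 to 0.542 FPKM in all 10 libraries of day 14. At day 21 it stood at 0, 0.637, 7.72, 25.0 and 187 FPKM in knock-out libraries and at 0, 0.534, 0.969, 40.3 and 104 FPKM in wild-type libraries. Libraries 17-1 and 16-2, which stood apart, were the highest of the 10. The log2 change was 3.22 ± 1.03 (SE, limma adjusted p = 0.0206), and without the 4 libraries that stood apart it was 2.04 with an adjusted p of 0.0999. In all, 16 risers averaging 1 FPKM or more with a larger change than the smallest of the 12 were passed over for overlap, against 1 faller.

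Whether the change differed between the genotypes was tested as an interaction in the same 20 libraries. By limma, 0 of 14779 genes (0%) passed an adjusted p of 0.05. An unadjusted p under 0.05 was found in 211 genes (1.43%), where 5% are expected if no gene differs. The reason for this low share was not tested. The estimated differences ran from -7.03 to 2.89 log2 units. The median half-width of the 95% interval of the difference was 0.35 log2 units. For 5144 of the 5208 called genes the interval reached less than 2-fold to either side of the estimate. A p above the threshold does not show that the genotypes changed alike. The 211 genes had a difference beyond the half-width of their own interval, and 0 of them were called. Differences larger than these intervals could therefore also go uncalled with 5 libraries per group. All 5208 called genes had the same sign of change in each genotype alone, which the pooled test favours by its construction.

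The intervals differed in width between genes. For ENSRNOG00000018700 the knock-out change minus the wild-type change was -1.02 with a 95% interval of -2.97 to 0.93, and for ENSRNOG00000015445 it was -0.42 with an interval of -1.88 to 1.03. The fallers were measured more closely, at 0.09 with an interval of -0.49 to 0.68 for ENSRNOG00000018992 and 0.03 with an interval of -0.65 to 0.72 for ENSRNOG00000005797. Among the 12 risers and 12 fallers described above, chosen for lack of overlap in each genotype, 0 had an unadjusted p under 0.05 for the difference between genotypes. Among all tested genes that share was 1.43%, so 0 in so small a set carries no information on the genotypes. Fitted on wild-type libraries alone the week gave 975 risers and 863 fallers, and on knock-out libraries alone 1798 and 1804. The median within-group standard deviation at day 14 was 0.219 log2 units in wild-type and 0.157 in knock-out libraries, and at day 21 it was 0.185 and 0.145. Its part in these counts was not tested.

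The place of each library on the step was read from genes chosen in the other genotype. For a knock-out library this was the mean log2 level of the 975 wild-type risers minus that of the 863 wild-type fallers, and for a wild-type library the same over the 1798 risers and 1804 fallers of knock-out rats. On this scale 0% is the mean of day 14 and 100% the mean of day 21 of the library's own genotype. All 10 libraries of day 21 lay close together, from 96.6% to 103% in knock-out and from 98.6% to 103% in wild-type rats. Wild-type libraries of day 14 ranged from -8.16% to 9.20%. Knock-out libraries of day 14 stood at -18.8%, -13.9%, -10.1%, 11.2% and 31.6%. The highest 2 of these were 24-1 and 24-2, which share their first title number, and the labels do not say what that number stands for.

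**Figure D4:**
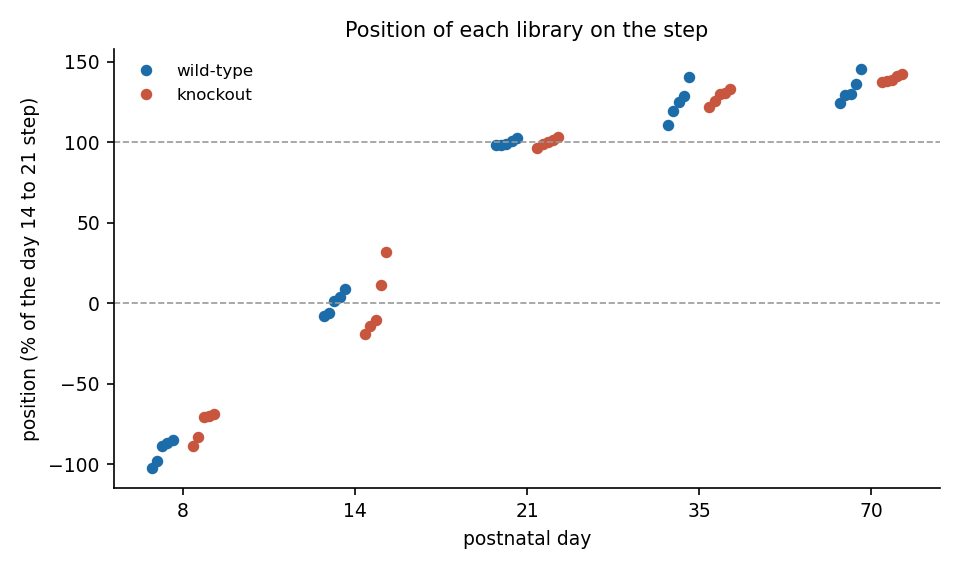
Position of each of the 50 libraries (vertical axis, % of the step from day 14 to day 21 of its own genotype, from genes chosen in the other genotype) by postnatal day, 5 wild-type and 5 knock-out libraries per age, with dashed lines at 0 and 100%. The knock-out libraries of day 14 spread from -18.8% to 31.6%, while those of day 21 lie within 96.6% to 103%.

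Libraries of the other ages fell on either side of the step. Their mean position was -76.2% in knock-out and -92.1% in wild-type rats at day 8. By day 35 it was 128% and 125%, and by day 70 it was 139% and 133%. The genotypes were scored on different genes, so these percentages were not compared between them.

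The week was then set beside the weeks around it, with which it shares the libraries of day 14 or day 21. The median absolute log2 change of the tested genes was 0.224 from day 8 to 14, 0.169 from day 14 to 21, 0.111 from day 21 to 35 and 0.091 from day 35 to 70. In the same order, 301, 168, 43 and 12 genes had a mean more than 2-fold higher at the later age, and 247, 82, 31 and 69 a mean more than 2-fold lower, without regard to a test. The steps span 6, 7, 14 and 35 days.

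The difference between the step from day 14 to 21 and the step before it was tested directly over all 50 libraries. It was positive in 1060 genes (7.17%) and negative in 1406 (9.51%) at a limma adjusted p under 0.05. By the signs of the group means, 596 of the 1060 (56.2%) were lower at day 14 than at both neighbouring ages, and 364 went on falling but by less. Of the 1406, 685 (48.7%) peaked at day 14 and 615 (43.7%) rose by less than in the week before. The remaining 100 and 106 genes moved further in the direction they already had. These patterns are a description, since they were read from the means that made the call. The libraries of day 14 enter both steps, which favours a turn at that age among called genes. The shares of the patterns over all tested genes were not computed. Without the 4 libraries that stood apart the counts were 875 and 1231.

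The clearest case of each sign, by lowest adjusted p and chosen after the values were seen, was a gene that had made most of its move by day 14. ENSRNOG00000029212 fell from 13.7 ± 2.74 (knock-out) and 10.6 ± 1.64 FPKM (wild-type) at day 8 to 3.60 ± 0.22 and 3.64 ± 0.24 FPKM at day 14 (SD, n = 5). At day 21 it was at 3.50 ± 0.39 and 4.00 ± 0.47 FPKM (SD, n = 5), and the difference of the steps was 1.63 ± 0.13 (SE, limma adjusted p = 6.49e-13). ENSRNOG00000032450 came up from 0.084 ± 0.052 (knock-out) and 0.123 ± 0.038 FPKM (wild-type) at day 8 to 5.41 ± 0.82 and 5.79 ± 1.48 FPKM at day 14 (SD, n = 5). It then rose further to 7.86 ± 0.83 and 8.71 ± 1.01 FPKM at day 21, and the difference of the steps was -2.78 ± 0.13 (SE, limma adjusted p = 1.03e-19). These 2 genes did their main move before the week described here, in contrast to ENSRNOG00000018700, whose difference of the steps was 2.93 ± 0.59 (SE).

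Against the step from day 21 to 35, 808 genes had a positive difference (5.47%) and 683 a negative one (4.62%). Of the 808, 507 (62.7%) were highest at day 21 of the 3 ages and 281 (34.8%) rose by less afterwards. Of the 683, 406 (59.4%) were lowest at day 21 and 265 (38.8%) fell by less afterwards. The same limit holds here, with the libraries of day 21 in both steps. The counts were 661 and 522 without the 4 libraries, and the positive count was 386 on the values as deposited, where 718 were negative.

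ENSRNOG00000010172, chosen after the values were seen as the positive difference of lowest adjusted p, was a gene whose fall lay mainly after the week. It stood at 8.76 ± 1.08 (knock-out) and 7.93 ± 1.17 FPKM (wild-type) at day 14, at 5.31 ± 0.83 and 4.43 ± 0.40 FPKM at day 21, and at 0.699 ± 0.129 and 0.700 ± 0.079 FPKM at day 35 (SD, n = 5). The difference of the steps was 1.43 ± 0.13 (SE), the fall to day 21 being the smaller, with a limma adjusted p of 1.98e-09. ENSRNOG00000007393, chosen in the same way for the negative sign, had begun its fall before the week and had ended it by day 21. Its level at day 8 was 14.9 ± 1.36 (knock-out) and 16.2 ± 0.96 FPKM (wild-type) (SD, n = 5). It went from 8.39 ± 1.98 (knock-out) and 8.03 ± 0.86 FPKM (wild-type) at day 14 to 3.10 ± 0.38 and 2.74 ± 0.43 FPKM at day 21, and was at 3.25 ± 0.54 and 3.25 ± 0.43 FPKM at day 35 (SD, n = 5). Its difference of the steps was -1.47 ± 0.15 (SE, limma adjusted p = 1.33e-08).

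The direction of the called genes was followed in 20 libraries that had no part in calling them, those of days 8 and 70, which shared with the week the rescaling and the filter on the mean. Between these ages 4864 of all tested genes (32.9%) were higher at day 70 and 4921 (33.3%) were lower, at a limma adjusted p under 0.05. Of the 2588 risers, 2342 (90.5%) were higher at day 70, 52 (2.01%) were lower and 194 were not called. Of the 2620 fallers, 2379 (90.8%) were lower, 31 (1.18%) were higher and 210 were not called. Among the 9571 genes not called between days 14 and 21, 26.0% were higher and 26.0% lower.

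The genes of the long course were also looked up in the week. Of the 4864 genes higher at day 70 than at day 8, 48.1% rose and 0.64% fell between days 14 and 21. Of the 4921 genes lower at day 70, 48.3% fell and 1.06% rose. The median change in the week was 0.21 log2 units for the first set and -0.21 for the second, or 35.6% and 38.8% of their median difference between days 8 and 70.

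**Figure D5:**
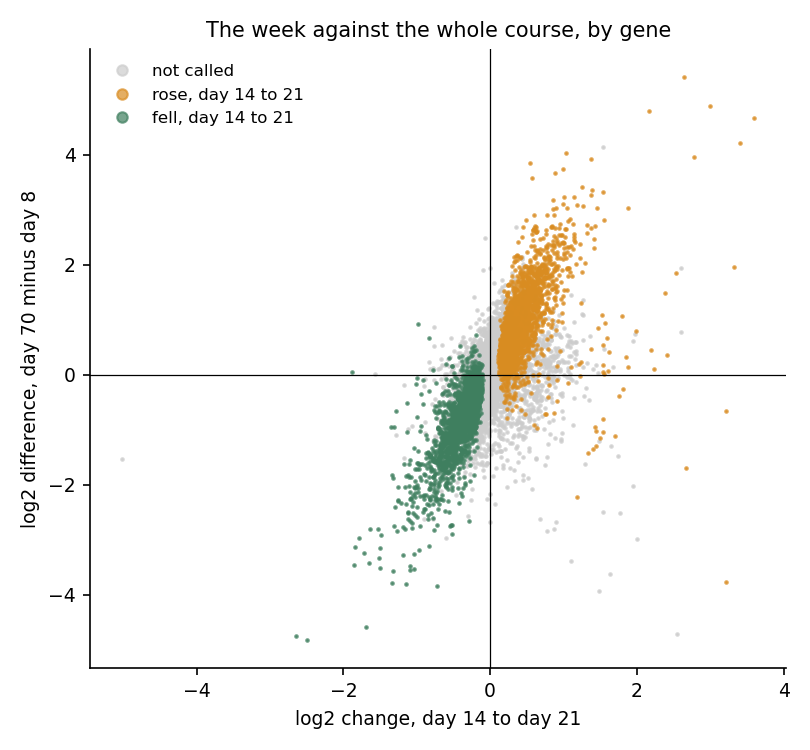
Fitted log2 change from day 14 to day 21 (horizontal axis, 20 libraries) against the log2 difference between day 70 and day 8 (vertical axis, 20 other libraries), 1 point per tested gene, coloured by whether the gene rose, fell or was not called in the week. Of the 2588 risers 2342 were called higher at day 70, and of the 2620 fallers 2379 were called lower.

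The means of most called genes moved in the same direction before the week, and the means of most did so after it. The 2 sides were counted separately, by the means and without a test. These shares use the means of days 14 and 21 that chose the genes, and the shares over all tested genes were not computed. The mean of 81.1% of the risers was lower at day 8 than at day 14, and that of 77.8% of the fallers was higher. By day 70 the mean of 70.5% of the risers lay above its day 21 level and that of 71.0% of the fallers below it. A return past the day 14 level by day 70 was found in 3.83% of the risers and 2.33% of the fallers.

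A few genes ran against their long course in this week. ENSRNOG00000033465 and ENSRNOG00000016628 were picked after their values were seen, as the called genes without overlap whose opposite difference between days 8 and 70 had the lowest adjusted p in each direction. ENSRNOG00000033465 was at 99.8, 110, 110, 139 and 173 FPKM in knock-out and at 176, 229, 253, 301 and 305 FPKM in wild-type libraries of day 14. By day 21 it reached 289, 340, 357, 840 and 1070 FPKM in knock-out and 343, 378, 511, 580 and 1004 FPKM in wild-type libraries. The ages did not overlap within a genotype, and the libraries 17-1 and 17-2 (knock-out) and 16-2 (wild-type) were far above the others at day 21. The log2 change was 1.54 ± 0.26 (SE, limma adjusted p = 0.000114), and it was 1.31 without the 4 libraries that stood apart. Fitted alone, knock-out libraries gave 2.01 and wild-type libraries 1.07. The knock-out change minus the wild-type change was 0.94 with a 95% interval of -0.08 to 1.96. At day 14 every knock-out library lay below every wild-type library. At day 70 the level was 147 ± 27.2 (knock-out) and 137 ± 42.9 FPKM (wild-type), under the 296 ± 108 and 294 ± 46.7 FPKM of day 8 (SD, n = 5).

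ENSRNOG00000016628 peaked at day 14. It rose from 1.24 ± 0.42 (knock-out) and 1.65 ± 0.39 FPKM (wild-type) at day 8 to 3.40 ± 0.66 and 3.94 ± 0.74 FPKM at day 14, then fell to 1.73 ± 0.25 and 1.92 ± 0.16 FPKM at day 21 (SD, n = 5). The log2 change in the week was -0.83 ± 0.09 (SE, limma adjusted p = 3.93e-07). At day 70 it was at 2.38 ± 0.55 and 2.73 ± 0.19 FPKM (SD, n = 5), between its levels of days 21 and 14.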

How the data were processed

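The authors deposited FPKM for 29516 Ensembl identifiers in a table for each genotype, and all columns were matched to samples by title (0 unmatched). RNA was depleted of ribosomal RNA, amplified by 10 PCR cycles, read as 50 bp single ends to about 29000000 reads per sample and aligned to rn4 with gsnap, per the labels' protocols. Per the submitters' processing notes, BWA 0.6.1, bedtools and Cufflinks were used with rn4; the sources used here do not say which of the aligners made the values. The annotation release and the strand setting are not given in the sources used here, so reads of overlapping genes may be counted together. The files do not pair identifiers with names, and the table of gene names used here holds 0 Ensembl rat identifiers, so gene lists, marker genes, sequences and the targeted gene were not analysed here. This applies also to the part of the naming rule that asks for symbols.

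Absolute depth is unknown; the value of 1 read, compared between libraries in 4202 low genes, gave it as a ratio. Values were divided by median-ratio factors over all 50 libraries and tested as log2(FPKM + 0.5) in genes whose mean reached 0.5 FPKM, with limma 3.58.1 in R 4.3.3 (moderated statistics with trend and robust variance), calling an adjusted p under 0.05. The week was fitted on its 20 libraries, its interaction with genotype on the same, the differences between steps on all 50, and days 8 and 70 on theirs. The method was tested on simulated data with independent noise in each library. These data held no libraries that stood apart and no likeness by title number, so the method was not tested under those conditions. Named genes were the largest called changes with a mean of 1 FPKM or more and no overlap in either genotype, 2 per direction given the lack of symbols; others are said to be chosen after their values were seen. The comparison, its members and its lists were chosen with earlier results of these data known. Alternatives were the pseudocount, the filter, the scaling, array weights, the title number, each genotype alone, all 50 libraries and leaving out libraries. Tables and figures used Python 3.11.15, numpy 2.4.6, pandas 2.3.3, scipy 1.17.1 and matplotlib 3.10.9.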

Additional observations from a re-analysis of the deposited data

Results flagged for a closer look

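In 60 groups of 5 libraries of days 14 and 21, a library was looked for that lay far from the nearest other. The gap, as a share of the range of the group, had to exceed Dixon's 95% critical value of 0.71, and 7 values did so. Chance passes it in about 1 in 20 groups of normally distributed values. The named genes were picked by their values, so this rate need not hold for them. For ENSRNOG00000018992, the wild-type library 14-1 of day 21 was low at 7.41 FPKM, with the other 4 between 12.6 and 12.8 FPKM. For ENSRNOG00000005797, the knock-out library 17-2 of day 21 was high at 3.87 FPKM. For ENSRNOG00000032450, a library was high in 3 of the 4 groups, at 8.33 FPKM (wild-type 21-3, day 14), 9.35 FPKM (knock-out 13-4, day 21) and 10.4 FPKM (wild-type 16-2, day 21). For ENSRNOG00000043948, the wild-type library 20-6 of day 14 was the one library of its group above 0, at 0.482 FPKM. With the other 4 at 0, any value would have been flagged. In the same gene the knock-out library 17-1 of day 21 was high at 187 FPKM. Libraries 21-3, 16-2 and 17-1 are among the 4 that stood apart.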

How the results depend on the processing

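Leaving out each of the 20 libraries in turn gave 4764 to 5416 called genes, with 2387 to 2728 risers and 2369 to 2723 fallers, and 0 genes with a genotype difference each time. On wild-type libraries alone the calls were 1838, with 975 risers and 863 fallers, and on the same number of knock-out libraries alone they were 3602, with 1798 and 1804. The cause was not tested. Averaging libraries by their first title number kept 1840 of the risers and 1746 of the fallers, and that number as a random effect kept 2248 and 2213. Calls over 2-fold were 179, and 312 with a pseudocount of 0.1 and 119 with a pseudocount of 1, since a lower pseudocount enlarges the fold of low genes. The positive difference to the step from day 21 to 35 was called in 808 genes, and in 386 on the values as deposited; leaving out 1 library at a time gave 596 to 973. The other alternatives kept the counts of the week, of the differences between steps and of the follow-up at days 8 and 70 within 1.5 times. Of the named genes, all kept direction and call, except that ENSRNOG00000043948 lost its call with array weights, in each genotype alone and without the 4 libraries (adjusted p 0.0800 to 0.193). No paired analysis was possible because the groups share no title number. Alternatives for gene lists were not run, for lack of gene names. Depth is known only as a ratio, so no counting interval can be given.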
